A study of Homo sapiens with 11 samples.

Results

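Receptor tyrosine kinases other than ROS1 were examined in HCC78, a lung adenocarcinoma cell line that carries an SLC34A2-ROS1 fusion kinase and an endogenous U2AF1 S34F allele. The genes were chosen by name: EGFR, ERBB2, ERBB3, MET, AXL, IGF1R, INSR, FGFR1, FGFR2 and DDR1, which are 10 of the 57773 genes of the expression table. All 10 were listed there, and 96 of 92662 annotated splicing events were listed under their names. RNA-Seq was performed on 9 libraries: parental HCC78 (n = 2), a derived line that carries a doxycycline-inducible lentiviral construct for FLAG- and HA-tagged wild-type U2AF1, without doxycycline (WT dox-, n = 2) and with it (WT dox+, n = 2), and a derived line with the same construct for U2AF1 S34F, without doxycycline (S34F dox-, n = 1) and with it (S34F dox+, n = 2). All of these cells, controls included, carry the fusion and the endogenous mutant allele. Per the sample labels, S34F and wild-type U2AF1 stood at 62:38 and 65:35 in the S34F dox+ libraries, at 12:88 and 14:86 in WT dox+, at 33:67 in both WT dox- libraries, at 28:72 in S34F dox- and at 32:68 in both parental libraries. Doxycycline was given to the transduced lines together with construct expression, so an effect of the drug and an effect of the induced protein cannot be told apart. The sources disagree over whether the parental cells received doxycycline. Each construct was studied in 1 stable line as far as the labels show, so the line and the construct cannot be told apart either, and the p-values measure the spread between libraries of the same line.

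Receptor tyrosine kinases are cell-surface proteins that bind an extracellular ligand. Acting as pairs, they phosphorylate each other and then downstream proteins of the MAPK and PI3K pathways. EGFR, ERBB2 and ERBB3 form mixed pairs within 1 family, in which ERBB2 has no known ligand of its own and ERBB3 has little kinase activity. MET, AXL and members of the EGFR and FGFR families are known in lung adenocarcinoma as alternative routes of signalling when a driver kinase is inhibited. U2AF1 is the splicing factor subunit that reads the AG at the end of introns, and S34F lies in its first zinc finger.

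Expression was measured as FPKM, which the authors computed with RSEM from paired-end fragments, scaled to transcript length and to the size of the library. Read totals are not known. Because of the length scaling, levels can be set beside each other between genes whose transcripts match the annotation. The sum of FPKM over all genes was between 1071580 and 1235360 per library. Between 13661 and 14688 genes reached 1 FPKM in the 5 libraries without induction, compared with 15736 and 20896 genes in replicates 1 and 2 of S34F dox+ and 16053 and 17716 in those of WT dox+. U2AF1 itself was between 103 and 115 FPKM in the 5 libraries without induction and reached 278 and 299 FPKM after induction of the wild-type and 164 and 223 FPKM after induction of the mutant construct. Epithelial markers were high throughout: all 6 of EPCAM, KRT7, KRT8, KRT18, KRT19 and CDH1 had a mean of at least 1 FPKM, and their summed level was between 8422 and 11419 FPKM. Of the lung adenocarcinoma lineage markers NKX2-1, NAPSA, SFTPB and SLC34A2, 3 of 4 reached that mean. The summed level of fibroblast markers was between 3.54 and 12.0 FPKM, that of endothelial markers at most 2.99 FPKM, and that of immune markers between 14.9 and 36.4 FPKM, of which CD68 made up 13.5 to 34.4 FPKM.

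HCC78 cells expressed 7 of the 10 receptors at a mean above 10 FPKM and 3 of them weakly. MET, the receptor of hepatocyte growth factor, had the highest mean of all receptor tyrosine kinases examined, at 166 FPKM over the 9 libraries. It was followed by ERBB2 at 102 FPKM, by AXL, the receptor of GAS6, at 92.0 FPKM and by ERBB3, the neuregulin receptor, at 60.6 FPKM. Among the 48 other receptor tyrosine kinases listed, 19 had a mean of at least 1 FPKM, and the highest were RYK, a Wnt receptor, at 36.2 FPKM, PTK7, a pseudokinase, at 32.6 FPKM and EPHA2, an ephrin receptor, at 31.5 FPKM. The fusion partner ROS1 had a mean of 18.3 FPKM, so MET, ERBB2, AXL, ERBB3, the collagen receptor DDR1 (27.3 FPKM) and EGFR (22.3 FPKM) all had a higher mean FPKM than ROS1 over the 9 libraries. In parental cells alone ROS1 had a mean of 31.9 FPKM, above DDR1 (30.4 FPKM) and EGFR (15.5 FPKM). Per the paper, the fusion transcripts hold only the later exons of ROS1, whereas gene-level FPKM is scaled to annotated transcripts. The ROS1 level is therefore not strictly comparable with those of the other receptors. IGF1R, the receptor of insulin-like growth factors, was at 14.1 FPKM. FGFR1, FGFR2 and the insulin receptor INSR were at 2.24, 1.27 and 0.393 FPKM, and INSR did not reach the mean of 1 FPKM required for testing, so 9 of the 10 members were tested.

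**Figure D1:**
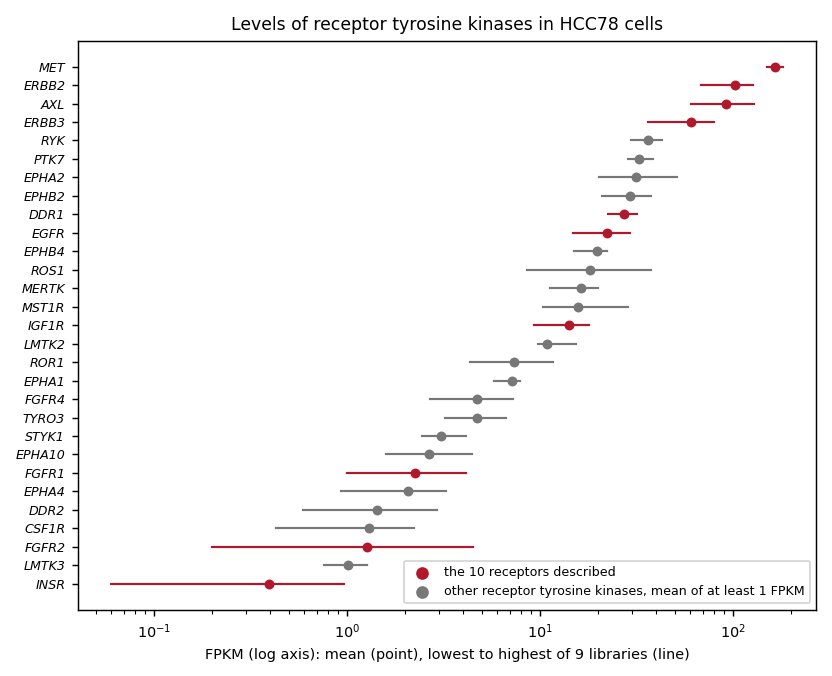
Mean FPKM (points, log axis) and lowest to highest value of 9 libraries (lines) for the 10 receptors described (red) and the 19 other receptor tyrosine kinases with a mean of at least 1 FPKM (grey). MET, ERBB2, AXL and ERBB3 have the 4 highest means, and FGFR1, FGFR2 and INSR lie near or below 1 to 3 FPKM.

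The order of the receptors was not the same in every group. MET was first in all 5 groups. In parental cells ERBB2 followed at 125 ± 3.45 FPKM (SD, n = 2), then ERBB3 at 79.6 ± 0.474 FPKM (SD, n = 2) and AXL at 66.7 ± 7.82 FPKM (SD, n = 2). In WT dox- cells AXL came next to MET at 122 ± 9.04 FPKM (SD, n = 2), then ERBB2 at 82.7 ± 10.8 FPKM (SD, n = 2) and ERBB3 at 46.8 ± 14.9 FPKM (SD, n = 2). The S34F dox- library had the order of WT dox- for these receptors, with 98.9 FPKM of AXL, 68.3 FPKM of ERBB2 and 44.7 FPKM of ERBB3. With doxycycline, ERBB2 was again ahead of AXL in both lines. Further down, EGFR and DDR1 overlapped in WT dox- and in WT dox+, but DDR1 was above EGFR without overlap in parental cells and in S34F dox+. EGFR and IGF1R overlapped in parental cells and not in S34F dox+.

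The ratio of AXL to ERBB2 within a library does not depend on how libraries are scaled to each other. It was 0.498 and 0.566 in the parental libraries, 1.71 and 1.28 in WT dox- and 1.45 in S34F dox-. With doxycycline it was 0.916 and 0.798 in the wild-type line and 0.709 and 0.771 in the S34F line. Thus AXL exceeded ERBB2 in the 3 transduced libraries without doxycycline and in none of the other 6. This ratio was chosen after the values had been seen and carries no test.

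**Figure D2:**
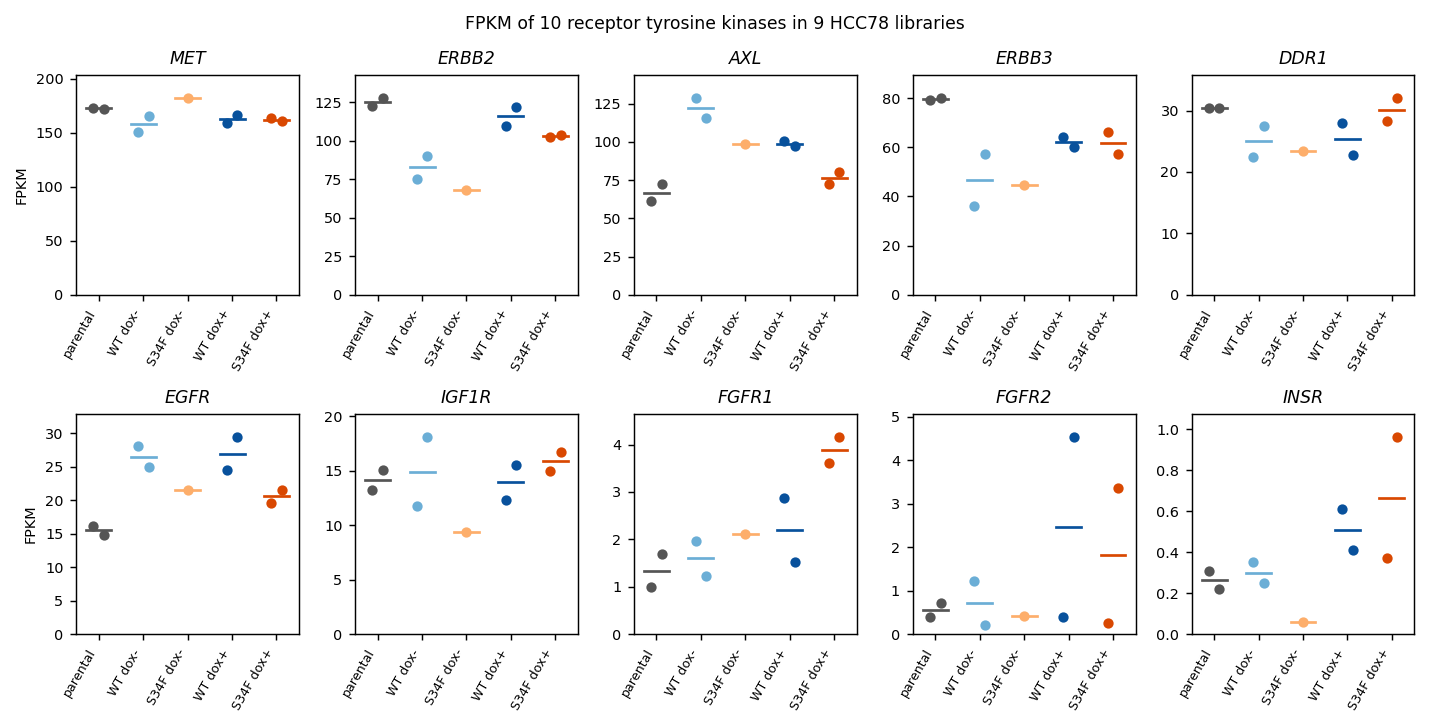
FPKM of each of the 10 receptors in 9 libraries, ordered by mean level (points are libraries, horizontal bars are group means, axes start at 0; S34F dox- has 1 library). MET is level across groups, ERBB2 and ERBB3 are lowest in the transduced lines without doxycycline, AXL is highest in WT dox-, and the higher values of FGFR2 are single libraries.

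The first comparison, S34F dox+ with WT dox+, asks how receptor levels differ when mutant in place of wild-type U2AF1 is induced. U2AF1 was at 278 and 299 FPKM in WT dox+ and at 164 and 223 FPKM in S34F dox+. The mutation and the level of U2AF1 therefore cannot be told apart in this comparison. For tests, 15179 genes whose mean over all libraries reached 1 FPKM were fitted on the log2(FPKM + 1) scale with limma-trend, with 5 groups in a single fit, two-sided, and p-values were adjusted by Benjamini-Hochberg over all these genes. None of the 9 tested receptors passed an adjusted p of 0.05, against 0.0527% of all genes tested. At an unadjusted p under 0.05, 2 of 9 receptors differed, both lower in S34F dox+, against 6.78% of all genes. The median difference was -0.01 on the log2 scale over the 9 receptors and 0.03 over all genes tested.

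AXL was at 72.6 and 80.1 FPKM in S34F dox+ and at 100.4 and 97.6 FPKM in WT dox+. EGFR was at 19.7 and 21.6 FPKM in S34F dox+ and at 24.6 and 29.4 FPKM in WT dox+. For both genes the groups did not overlap. The same held for ERBB2 (102 and 104 FPKM against 110 and 122 FPKM), FGFR1 (3.62 and 4.15 FPKM against 2.87 and 1.53 FPKM) and, narrowly, DDR1 (28.2 and 32.0 FPKM against 28.0 and 22.8 FPKM). The share of all genes without such overlap was not counted. The fitted difference was -0.37 on the log2(FPKM + 1) scale for AXL (SE 0.12, limma adjusted p = 0.619) and -0.37 for EGFR (SE 0.14, limma adjusted p = 0.691). Neither passed the adjustment over all genes.

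The same ordering of the lines was seen without doxycycline for 3 receptors. AXL was at 98.9 FPKM in S34F dox- and at 129 and 116 FPKM in WT dox-. EGFR was at 21.6 FPKM in S34F dox- and at 28.0 and 24.9 FPKM in WT dox-. ERBB2 was at 68.3 FPKM in S34F dox- against 75.1 and 90.3 FPKM in WT dox-, and at 102 and 104 FPKM in S34F dox+ against 110 and 122 FPKM in WT dox+. These 3 receptors were therefore lower in the S34F line in both doxycycline states without overlap, and FGFR1 was higher in both. Together these are 4 of 9 receptors, against 13.2% of all genes tested. Averaged over doxycycline, the S34F line differed from the wild-type line by -0.34 for AXL (limma adjusted p = 0.675), by -0.32 for EGFR (limma adjusted p = 0.743) and by -0.21 for ERBB2 (limma adjusted p = 0.838), all on the log2(FPKM + 1) scale. In that comparison none of the 9 receptors passed an adjusted p of 0.05, against 0.119% of all genes, and 2 of 9 were under an unadjusted p of 0.05, against 5.96% of all genes.

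FGFR1, a receptor of fibroblast growth factors, had its 2 highest values in S34F dox+. It was at 3.62 and 4.15 FPKM there, at 2.87 and 1.53 FPKM in WT dox+, at 2.12 FPKM in S34F dox-, at 1.96 and 1.23 FPKM in WT dox- and at 1.00 and 1.68 FPKM in parental cells. All these levels are low. The highest is in S34F dox+ replicate 2, the library with the most genes at 1 FPKM or above (20896). The part of this in the FGFR1 values was not tested. The difference between S34F dox+ and WT dox+ was 0.64 on the log2 scale (95% confidence interval -0.12 to 1.40, limma adjusted p = 0.759), and it was 0.33 without WT dox+ replicate 2. The antisense or overlapping gene RP11-350N15.4 is listed for some of the same splicing events as FGFR1, and the sources do not say whether strand was used in counting.

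MET did not show a difference between the induced lines at this precision. It was at 163 and 161 FPKM in S34F dox+ and at 159 and 166 FPKM in WT dox+, and the 95% confidence interval of the log2 difference was -0.22 to 0.22. ERBB3 was at 66.2 and 57.5 FPKM in S34F dox+ and at 64.3 and 60.3 FPKM in WT dox+, with an interval of -0.48 to 0.45. DDR1 was at 28.2 and 32.0 FPKM against 28.0 and 22.8 FPKM, a difference of 0.24 (limma adjusted p = 0.808) that was between 0.0986 and 0.385 with 1 library left out. IGF1R was at 15.0 and 16.7 FPKM against 12.3 and 15.6 FPKM, a difference of 0.18 (limma adjusted p = 0.914) that was between 0.0237 and 0.341 with 1 library left out.

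FGFR2 varied more between replicates than between groups, and INSR was below 1 FPKM in every library. FGFR2 was at 4.52 FPKM in WT dox+ replicate 2 and at 3.36 FPKM in S34F dox+ replicate 2, and between 0.20 and 1.21 FPKM in the other 7 libraries. The highest value of INSR, 0.96 FPKM, was also in S34F dox+ replicate 2, and INSR was between 0.06 and 0.61 FPKM elsewhere. The libraries with the 2 high values of FGFR2 are those with the most genes at 1 FPKM or above, and the part of this in the values was not tested.

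**Figure D3:**
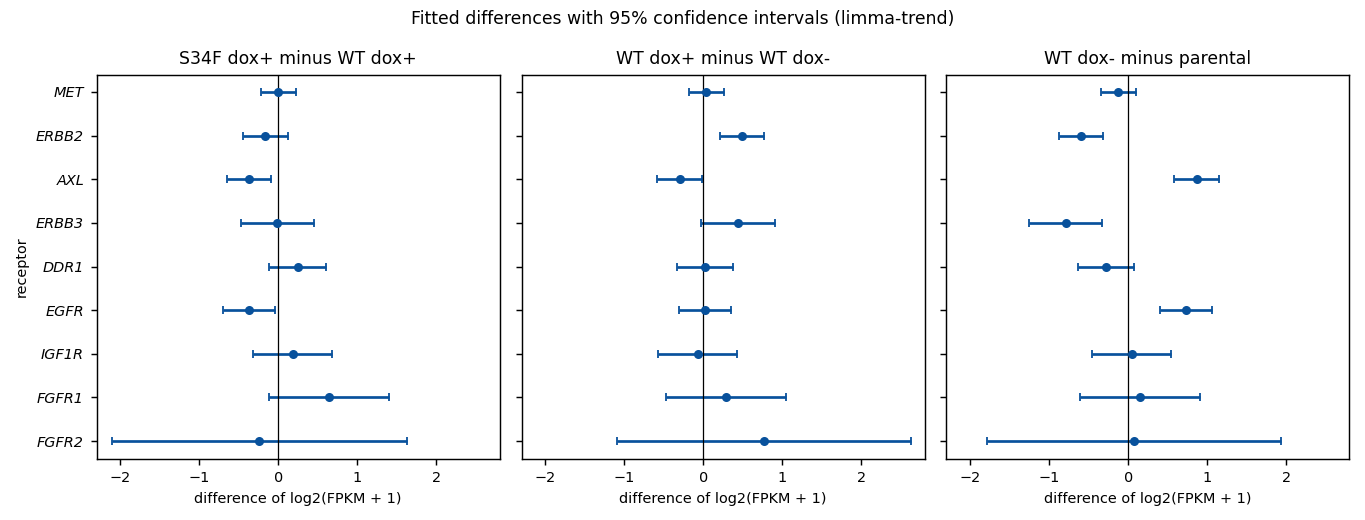
Fitted differences of log2(FPKM + 1) with 95% confidence intervals for the 9 tested receptors in 3 comparisons (vertical line at 0). AXL and EGFR lie below 0 in S34F dox+ minus WT dox+, ERBB2 above 0 in WT dox+ minus WT dox-, and the intervals of FGFR2 are the widest.

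The second comparison, WT dox+ with WT dox-, gives the change when wild-type U2AF1 is induced. ERBB2 was at 110 and 122 FPKM with doxycycline and at 75.1 and 90.3 FPKM without it. The groups did not overlap for ERBB2, nor for AXL and ERBB3, and the share of all genes was not counted for this comparison. The difference for ERBB2 was 0.49 on the log2 scale (SE 0.12, limma adjusted p = 0.179). AXL differed in the opposite direction, with 100.4 and 97.6 FPKM against 129 and 116 FPKM and a difference of -0.30 (limma adjusted p = 0.326). These were 2 of 9 receptors at an unadjusted p under 0.05, against 14.4% of all genes, and none of the 9 passed an adjusted p of 0.05, against 0.0132%.

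ERBB3, the partner of ERBB2, was at 64.3 and 60.3 FPKM in WT dox+ and at 36.3 and 57.3 FPKM in WT dox-, a difference of 0.44 (95% confidence interval -0.02 to 0.90) that was 0.12 without WT dox- replicate 1 and 0.76 without WT dox- replicate 2. The WT dox- replicates of ERBB3 stood further apart than those of any other group. MET differed by 0.04 (95% confidence interval -0.18 to 0.26), and the largest estimate was that of FGFR2, 0.77, with an interval of -1.10 to 2.63. Over both transduced lines, the 4 libraries with doxycycline lay above the 3 without it for ERBB2 (102 to 122 FPKM against 68.3 to 90.3 FPKM) and for ERBB3 (57.5 to 66.2 FPKM against 36.3 to 57.3 FPKM). That is 2 of 9 receptors, against 25.0% of all genes tested in either direction, a share close to the background.

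The change with doxycycline in the S34F line rests on 1 library without it. The difference of the responses, S34F line minus wild-type line, was under an unadjusted p of 0.05 for none of the 9 receptors, against 3.42% of all genes, and none passed the adjusted threshold, against 0.0264%. The largest estimate was that of IGF1R, which was at 9.33 FPKM in S34F dox-, the lowest of all 9 libraries, and at 15.0 and 16.7 FPKM in S34F dox+. In the wild-type line IGF1R was at 11.8 and 18.1 FPKM without doxycycline and at 12.3 and 15.6 FPKM with it. The difference of the responses was 0.78 on the log2 scale (95% confidence interval -0.01 to 1.57), and it was 0.49 without WT dox- replicate 2. MET had the lowest estimate, -0.20 (95% confidence interval -0.55 to 0.14).

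The comparison of WT dox- with parental cells had the largest estimate of any receptor in the 5 comparisons, that of AXL, and sets the transduced line without induction beside the line it came from. As the sources disagree over whether the parental cells received doxycycline, transduction, line and drug cannot be told apart in this comparison. AXL was at 129 and 116 FPKM in WT dox- and at 61.2 and 72.2 FPKM in parental cells. EGFR was at 28.0 and 24.9 FPKM against 16.2 and 14.8 FPKM. ERBB2 differed the other way, with 75.1 and 90.3 FPKM against 123 and 128 FPKM. ERBB3 was also lower in WT dox-, at 36.3 and 57.3 FPKM against 79.3 and 80.0 FPKM. The groups did not overlap for any of the 4 genes. They did not overlap either for MET (151 and 166 FPKM in WT dox- against 173 and 172 FPKM in parental cells) or DDR1 (22.5 and 27.4 FPKM against 30.4 and 30.4 FPKM). The share of all genes without overlap was not counted for this comparison.

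On the log2(FPKM + 1) scale, WT dox- minus parental was 0.87 for AXL (SE 0.12, limma adjusted p = 0.0798) and 0.73 for EGFR (SE 0.14, limma adjusted p = 0.133). It was -0.60 for ERBB2 (SE 0.12, limma adjusted p = 0.143) and -0.79 for ERBB3 (SE 0.20, limma adjusted p = 0.205), the latter being -0.47 without WT dox- replicate 1. As ratios of FPKM + 1, AXL was 1.82-fold and EGFR 1.66-fold the parental level. At an unadjusted p under 0.05 these were 4 of 9 receptors, against 12.3% of all genes tested, and none passed an adjusted p of 0.05, against 0.0988%. With protein-coding genes only in the fit, AXL passed, with a limma adjusted p of 0.0256. The other 5 receptors lay between -0.28 (DDR1) and 0.15 (FGFR1), with MET at -0.13.

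These 4 receptors stood apart from parental cells in every transduced library. AXL was between 72.6 and 129 FPKM in the 7 transduced libraries against at most 72.2 FPKM in parental cells, a narrow gap. EGFR was between 19.7 and 29.4 FPKM against 14.8 and 16.2 FPKM. ERBB2 was between 68.3 and 122 FPKM against 123 and 128 FPKM, again a narrow gap, and ERBB3 between 36.3 and 66.2 FPKM against 79.3 and 80.0 FPKM. All 7 transduced libraries on 1 side of both parental ones was thus the case for 4 of 9 receptors, against 9.95% of all genes tested. The summed level of the 4 lineage markers moved with this contrast, at 191 and 239 FPKM in parental cells against 100 to 137 FPKM in the transduced libraries, mainly through SLC34A2, the fusion partner of ROS1. ROS1 was likewise at 26.1 and 37.8 FPKM in parental cells and between 8.63 and 17.1 FPKM in the transduced libraries. The part of these shifts in the receptor values was not tested.

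Among the 33 ligands listed for these receptors, 12 had a mean of at least 1 FPKM. The most abundant were AREG, EREG and HBEGF, which code for amphiregulin, epiregulin and heparin-binding EGF-like growth factor, all of them ligands of EGFR. AREG was at 67.1 and 105.9 FPKM in parental cells, at 75.4 and 113 FPKM in WT dox-, at 104 FPKM in S34F dox-, at 47.1 and 53.3 FPKM in WT dox+ and at 33.3 and 37.8 FPKM in S34F dox+. EREG was at 19.9 and 26.7 FPKM in parental cells, at 21.8 and 30.7 FPKM in WT dox-, at 29.1 FPKM in S34F dox-, at 15.4 and 18.7 FPKM in WT dox+ and at 7.61 and 8.58 FPKM in S34F dox+. Both ligands were lower in each induced library than in each transduced library without doxycycline. For both, S34F dox+ was below WT dox+ without overlap, a comparison for which the share of all genes was not counted.

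HBEGF was between 10.0 and 14.5 FPKM in the 4 induced libraries and between 15.4 and 22.1 FPKM in the 3 transduced libraries without doxycycline. BTC, a further ligand of EGFR, went the other way, at 8.59 to 11.06 FPKM against 6.85 to 8.43 FPKM. The EGFR ligands EGF and TGFA overlapped between these libraries. Of the 12 ligands tested, 7 had no overlap between these libraries, 4 of them higher with doxycycline and 3 lower, against 25.0% of all genes. WT dox+ minus WT dox- was -0.87 for AREG (limma adjusted p = 0.216), -0.58 for EREG (limma adjusted p = 0.285) and -0.74 for HBEGF (limma adjusted p = 0.326) on the log2 scale. S34F dox+ minus WT dox+ was -0.98 for EREG (limma adjusted p = 0.439). NRG1, the neuregulin that binds ERBB3 and here chosen after its values had been seen, differed the other way, at 10.98 and 12.58 FPKM in S34F dox+ and at 8.09 and 6.89 FPKM in WT dox+, a difference of 0.59 (limma adjusted p = 0.539). No ligand passed an adjusted p of 0.05 in any of the 5 comparisons. EGFR itself overlapped between these libraries: it was between 19.7 and 29.4 FPKM in the induced libraries and between 21.6 and 28.0 FPKM in the transduced ones without doxycycline.

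**Figure D4:**
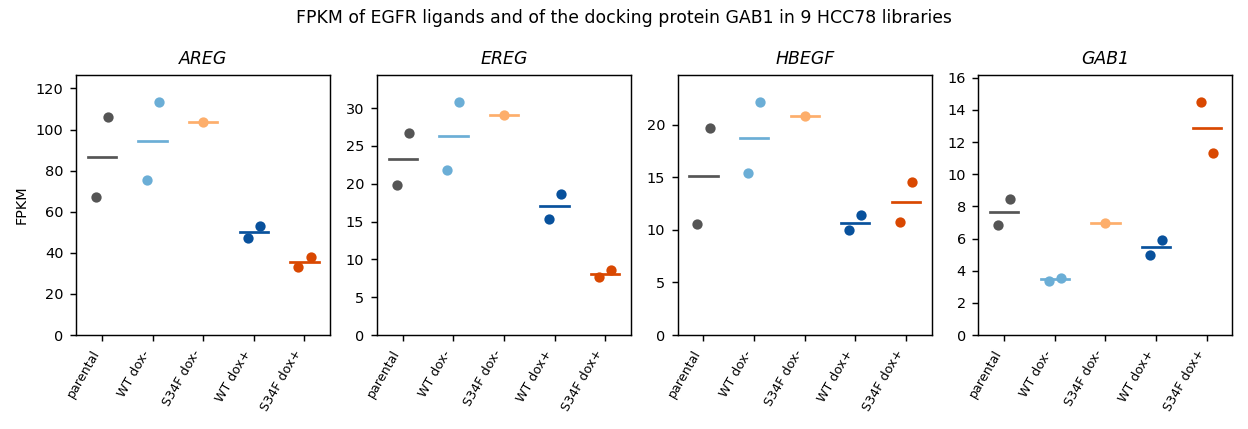
FPKM of AREG, EREG, HBEGF and GAB1 in 9 libraries (points are libraries, horizontal bars are group means, axes start at 0). AREG and EREG are lowest in S34F dox+, and GAB1 is lowest in WT dox- and highest in S34F dox+.

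Of the 26 adaptors and proximal effectors listed, 25 were tested, and none passed an adjusted p of 0.05 in any of the 5 comparisons. The most abundant were SHC1, GRB2 and PTPN11, which couple active receptors to the RAS pathway, with means of 82.3, 80.9 and 78.1 FPKM. GAB1, the docking protein through which MET recruits PI3K and PTPN11, was chosen here after its values had been seen. It was at 14.5 and 11.4 FPKM in S34F dox+, at 4.96 and 5.94 FPKM in WT dox+, at 6.97 FPKM in S34F dox-, at 3.36 and 3.57 FPKM in WT dox- and at 6.83 and 8.46 FPKM in parental cells. S34F dox+ minus WT dox+ was 1.10 on the log2 scale (limma adjusted p = 0.297), and WT dox- minus parental was -0.95 (limma adjusted p = 0.143). The wild-type line without doxycycline was thus the lowest of the 5 groups for GAB1. IRS1, another adaptor listed, went the other way in both comparisons. It was at 8.39 and 8.66 FPKM in S34F dox+ against 11.59 and 11.75 FPKM in WT dox+. In WT dox- it was at 17.19 and 16.5 FPKM, against 11.64 and 12.86 FPKM in parental cells.

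The brakes on these receptors include phosphatases and ubiquitin ligases. Of 24 listed, 23 were tested, with ERRFI1, an inhibitor of the EGFR family, SH3KBP1, an endocytic adaptor, and the phosphatase PTPRF as the most abundant at 80.4, 51.1 and 27.1 FPKM. Among 18 sheddases, co-receptors and ligand carriers, 13 were tested, led by the sheddase ADAM9 (239 FPKM), the IGF carrier IGFBP3 (152 FPKM) and the MET co-receptor CD44 (129 FPKM). Of 10 splicing regulators known to act on receptor exons, all were tested, led by HNRNPA1 (1192 FPKM), PTBP1 (272 FPKM) and SRSF1 (159 FPKM). No gene of these lists, and none of the 19 other receptors tested, passed an adjusted p of 0.05 in any of the 5 comparisons with limma. In S34F dox+ against WT dox+, the numbers under an unadjusted p of 0.05 were 3 of 23 brakes, 3 of 13 sheddases, co-receptors and carriers, 0 of 10 splicing regulators, 0 of 19 other receptors, 3 of 25 adaptors and 2 of 12 ligands, beside the 6.78% of all genes.

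For the 3 members with the widest range of log2(FPKM + 1), the protein-coding genes averaging 5 FPKM or more and having the most similar profile over the 9 libraries were found among up to 9277 genes. For ERBB3 these were LXN, H6PD and IDH1, with Pearson r of 0.968, 0.966 and 0.965. For FGFR1 they were FAM219B, PPFIBP1 and USP20 (r = 0.968, 0.959 and 0.957), and for FGFR2 they were FNTB, ANAPC7 and NAGPA (r = 0.903, 0.893 and 0.886). These values are descriptions over 9 libraries that share groups, depth and line. As the highest of up to 9277 genes they are high by selection. The FGFR2 profile rests mainly on WT dox+ replicate 2 (4.52 FPKM) and S34F dox+ replicate 2 (3.36 FPKM).

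Splicing was read from the authors' MISO comparison of S34F with wild-type cells, which gives for each event a PSI (percent spliced in, here a fraction) per condition, a Bayes factor and the reads, with no replicates. No test across replicates is therefore possible, and the values are given as a description. The first-listed side was taken as S34F, since the table is named so. As a check over 8498 genes, the log ratio of first-side to second-side reads had a Spearman rho of 0.589 with the FPKM ratio of the induced lines and of 0.179 with that of the lines without doxycycline, where genes are not independent. All 96 events listed under the 10 receptors had at least 10 reads over both conditions: 48 skipped exons, 17 NAGNAG acceptors (acceptor sites 3 bases apart), 13 alternative 3′ splice sites, 10 alternative 5′ splice sites and 8 retained introns. Events of 1 gene share reads, since the reads listed cover whole transcripts.

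The thresholds for a different event were 0.10 for the change in PSI and 5 for the Bayes factor, both inclusive. This was met by 1 of the 96 receptor events, in DDR1, against 1.18% of 87763 events with at least 10 reads. A PSI difference of at least 0.10 alone was present in 34 of 96 events (35.4%), against 32.9% of all such events. Differences were smaller where reads were many: 13 of the 46 events with at least 500 reads in each condition reached 0.10, against 21 of the other 50, with median absolute differences of 0.04 and 0.08.

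The DDR1 event was a retained intron at chr6:30856591-30856714, numbered from the last base of 1 exon to the first base of the next, on the plus strand (GRCh37/hg19 per the labels). The intron has 122 bases. Over all retained-intron events with more than 1000 wild-type reads the median PSI was 0.92, so PSI was read as the share of spliced transcripts. With 0.26 in S34F against 0.81 in wild-type it had the largest difference of the 96 events, with a Bayes factor of 58.3 and 30 and 41 reads. A second DDR1 event has the same upstream exon end and an acceptor nearer to it, at 30856685. There the PSI was 0.69 for S34F against 0.91 for wild-type, in the same direction, with 779 and 962 reads and a Bayes factor of 2.40, under the threshold. The choice between these acceptors, listed as an alternative 3′ splice site, had a PSI of 0.20 in both conditions. The event that met the thresholds belongs to transcripts listed as ending at 30858764, within the gene, and rests on few reads.

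**Figure D5:**
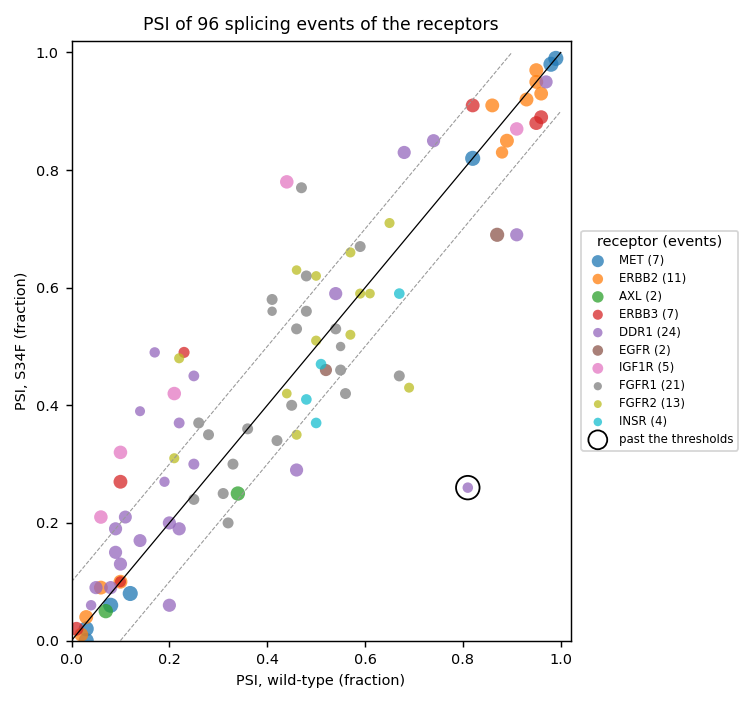
PSI in S34F (vertical) against PSI in wild-type (horizontal) for 96 events of the 10 receptors, coloured by gene, with point size growing with reads (solid line: equal PSI, dashed lines: difference of 0.10). The circled DDR1 retained intron, at 0.26 against 0.81, is the single event past the thresholds, and the MET and ERBB2 events lie close to the line.

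The IGF1R skipped exon at chr15:99478053 had the next largest Bayes factor, 3.97. Its inclusion was 0.78 for S34F against 0.44 for wild-type, with 1073 and 1694 reads. Of the 5 IGF1R events, 4 were higher in S34F by at least 0.10: this exon, an alternative 3′ splice site at 99459193 (0.32 against 0.10) and NAGNAG acceptors at 99472787 (0.42 against 0.21) and 99467105 (0.21 against 0.06). All 4 rest on nearly the same reads, and none reached a Bayes factor of 5.

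MET, with the most reads of the 10 receptors, showed little difference in splicing. The exon that starts at chr7:116411903 is the juxtamembrane exon whose skipping stabilizes and activates MET in lung adenocarcinoma. It was included at a PSI of 0.99 in both conditions, with 10681 and 16196 reads. None of the 7 MET events differed by more than 0.04, and the largest Bayes factor, 0.65, was that of an alternative 3′ splice site at 116380906 (0.00 against 0.03). Of the 11 events listed under ERBB2, 1 is a retained intron on the opposite strand at chr17:37885858-37885938, beyond the ERBB2 transcripts and also listed for MIEN1. None of the 11 differed by more than 0.05, with the largest Bayes factor, 0.27, at a NAGNAG acceptor at chr17:37873573 (0.10 in both). A skipped exon of AXL at chr19:41745599 was included at 0.25 in S34F and 0.34 in wild-type, with 3201 and 5791 reads and a Bayes factor of 0.38.

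EGFR had a skipped exon at chr7:55214299 whose PSI was 0.69 for S34F against 0.87 for wild-type, a Bayes factor of 0.72 and 2404 and 4426 reads. Its NAGNAG acceptor at 55240539 had a PSI of 0.46 against 0.52 and the larger Bayes factor of 0.99. ERBB3 differed most at a NAGNAG acceptor at chr12:56473981 (0.49 against 0.23, Bayes factor 0.71) with 59 and 74 reads. A further ERBB3 NAGNAG acceptor, at 56494845, had 0.27 against 0.10 with 1670 and 2711 reads. None of these events of the EGFR family reached a Bayes factor of 1.

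The alternative exons of the receptors of low expression rest on few reads, and none of their events reached a Bayes factor of 5. In INSR the exon at chr19:7150543, which separates the B form of the receptor from the A form, had a PSI of 0.37 for S34F against 0.50 for wild-type with 46 and 36 reads and a Bayes factor of 0.99. The largest INSR Bayes factor, 1.18, was at a NAGNAG acceptor whose first site is at 7132328 (0.41 against 0.48). In FGFR2 the alternative exons that set which growth factors the receptor binds lie next to each other. The exon at chr10:123278343 had 0.43 against 0.69 with 15 and 27 reads and a Bayes factor of 1.27. The exon at 123276977 had 0.48 against 0.22 with 16 and 30 reads. Each event has the other alternative exon as a flanking exon, so these values do not measure the choice between the exons. In FGFR1 the largest Bayes factor, 1.49, was that of an alternative 5′ splice site at chr8:38285864 (0.45 against 0.67) with 61 and 57 reads. Over the 21 FGFR1 events 9 were higher and 11 lower in S34F.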

How the data were processed

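The authors aligned paired-end total RNA reads, trimmed before alignment, with STAR 2.3.0 and computed gene-level FPKM and TPM values with RSEM 1.2.29, per the labels, against GRCh37 (hg19). The deposited table holds FPKM and TPM for 9 libraries and no gene counts, so the plan's option of a count model did not apply, no counting interval can be given and depth is unknown. For splicing the authors deposited MISO results with PSI, a fraction, a Bayes factor, used as a score, and read counts per condition. The columns with the authors' own PSI difference were not used. PSI differences were computed here, and where MISO listed more than 1 isoform, the one of highest Bayes factor stood for its event. How replicates were combined in MISO is not given in the sources used here. No genome sequence was used, so no splice-site sequence is given. Of 96 receptor events, 5 start within the GRCh38 span of their gene, so positions are not GRCh38.

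Genes averaging 1 FPKM or more were fitted on the log2(FPKM + 1) scale with limma 3.58.1 (limma-trend, robust off) in R 4.3.3, and tables were made with pandas 2.3.3 in Python 3.11.15. Receptors, gene lists and tests were chosen with earlier results of these data known. Named were all 10 receptors, the 3 most abundant genes of each list, any list gene passing an adjusted p of 0.05, U2AF1 and ROS1, and for splicing the event with the largest Bayes factor per receptor, events past the thresholds and known alternative exons. GAB1, IRS1, NRG1, BTC, EGF and TGFA were named outside this rule, after their values had been seen. A repeated gene name was taken at its highest mean. Alternatives covered the pseudocount (0.1), the minimum FPKM (none or 5), scaling, TPM, protein-coding genes only, a replicate block, the groups in the fit, each replicate left out, and thresholds on events (Bayes factor of 20, PSI difference of 0.20, 10 reads in each condition, several isoforms left out). RNA-binding (iCLIP) samples were not analysed here.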

Additional observations from a re-analysis of the deposited data

How the results depend on the processing

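None of the 9 tested receptors passed an adjusted p of 0.05 with limma under any alternative in S34F dox+ against WT dox+, WT dox+ against WT dox-, the difference of the responses or the line contrast, and 1, AXL, passed in WT dox- against parental with protein-coding genes only. The 1 DDR1 splicing event stayed past all 4 stricter thresholds. Of 45 receptor differences, 26 kept their sign under every alternative and 19 did not. Among those printed, MET in S34F dox+ against WT dox+ was 0.026 with quantile normalization and between -0.0348 and 0.0312 with a replicate left out, and MET in WT dox+ against WT dox- was -0.0012 with median-ratio scaling and between -0.0281 and 0.103 with a replicate left out. With a replicate left out, ERBB3 in S34F dox+ against WT dox+ was between -0.113 and 0.088, FGFR2 in WT dox+ against WT dox- between -0.229 and 1.76, and FGFR1 in WT dox- against parental between -0.0609 and 0.361. Without WT dox+ replicate 2, S34F dox+ minus WT dox+ was -0.24 for EGFR and -0.0864 for ERBB2, and without WT dox- replicate 2, WT dox+ minus WT dox- was -0.35 for EREG and -0.49 for HBEGF. Without WT dox- replicate 1, WT dox- minus parental was -0.14 for DDR1 and -0.0596 for MET, and without WT dox- replicate 2 it was -0.191 for MET. The cause was not tested.

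Counts of all genes called were small and moved with the setting. In S34F dox+ against WT dox+ the count of 8 became 4 with a pseudocount of 0.1, 3 with no minimum, 0 with only the compared groups (923 with p under 0.05 before adjustment), and 1 to 29 with a replicate left out, the 29 without S34F dox+ replicate 1. In WT dox+ against WT dox- the count of 2 became 7 with a pseudocount of 0.1, 8 with a minimum mean of 5 FPKM, 32 with protein-coding genes only, 1 with only the compared groups, 0 with no minimum, median-ratio scaling, quantile normalization or TPM (1926 to 3547 genes with p under 0.05 before adjustment), and 0 to 10 with a replicate left out. For the difference of the responses the count of 4 became 33 with no minimum, 0 with protein-coding genes only (403 before adjustment) and 2 to 11 with a replicate left out. For the line contrast the count of 18 became 44 with no minimum, 11 with protein-coding genes only and 9 to 23 with a replicate left out. In WT dox- against parental the count of 15 became 4 with no minimum, 8 with quantile normalization, 58 with protein-coding genes only, 3 with only the compared groups and 3 to 23 with a replicate left out. Higher and lower calls in S34F dox+ against WT dox+ were 3 and 5, 5 and 5 with quantile normalization, 1 and 5 with TPM, 20 and 9 without S34F dox+ replicate 1, and 0 and 13 without WT dox+ replicate 1.

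Correlations between same-numbered libraries of different groups were -0.163 to -0.0146, so this check gave no sign of pairing. With so few libraries per group it cannot decide whether the numbers pair samples. Replicate 2 had more genes at 1 FPKM or above than replicate 1 in WT dox+ (17716 against 16053) and S34F dox+ (20896 against 15736). It had fewer in parental cells (14533 against 14688) and WT dox- (14485 against 14490). With a replicate block, 5 genes, all lower, were called in S34F dox+ against WT dox+, 0 in WT dox+ against WT dox- (2116 before adjustment) and 6 in WT dox- against parental, and no receptor passed.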
